A study of Homo sapiens with 12 samples.

Results

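Alpha and beta tubulin are the paired subunits of microtubules, the hollow polymers that form the mitotic spindle, the tracks for intracellular transport and the core of nerve cell processes. Each subunit is encoded by a family of genes, the isotypes, whose proteins are alike in the body of the molecule and differ most in a short acidic tail at the carboxyl end. Cells also hold the total in check: a rise in unpolymerised tubulin shortens the life of tubulin mRNA, a feedback known as tubulin autoregulation. The isotypes described here are 4 alpha genes (TUBA1A, TUBA1B, TUBA1C and TUBA4A) and 6 beta genes (TUBB2A, TUBB2B, TUBB3, TUBB4A, TUBB4B and TUBB6), taken by gene symbol. All 10 were present once among the 56609 gene symbols of the files, and all 10 passed the filter on low values that left 14335 genes for testing.

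RNA was sequenced from A4573 and TC-71, 2 human lines of Ewing sarcoma, a tumour of bone and soft tissue in the young, and from sublines of both that are resistant to YK-4-279, a small molecule made to block the fusion oncoprotein EWS-FLI1 and since linked to disruption of microtubules. The 4 groups of 3 libraries were A4573-R, in YK-4-279 at a labelled 650 uM, A4573 parental, in the solvent DMSO, TC-71-R, in YK-4-279 at a labelled 400 uM, and TC-71 parental, in DMSO, with serum-supplemented RPMI as the medium of all 4. The doses are printed in the unit of the labels, which was not checked against another source. Resistance and the presence of the compound went together, so their effects cannot be told apart, and the labels do not say whether a resistant line is a single clone. Nothing in the labels says that replicates came from separate cultures. The p-values of the gene tests set a difference only against the spread among libraries of a group, pooled over the 4 groups. That spread may be technical.

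Values are CPM, read counts scaled by a normalized library size so that libraries can be compared, and the libraries held 43983425 to 62129570 reads on named genes. Among Ewing sarcoma markers, the summed level of 6 genes was 160 to 167 CPM in A4573-R, 203 to 210 CPM in A4573 parental, 561 to 592 CPM in TC-71-R and 446 to 458 CPM in TC-71 parental. NKX2-2, NR0B1, STEAP1, PAX7 and LIPI were present in every group, whereas CD99 was at or near 0 CPM in all 4, with a highest group mean of 0.0123 CPM. Whether that value reflects little CD99 mRNA or the way reads were counted was not tested. Summed markers of blood, epithelial and endothelial cells did not exceed 1.11, 3.88 and 0.787 CPM in any library.

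The summed mRNA of the 10 isotypes was higher in both resistant lines. It was 3024, 2724 and 3056 CPM in the A4573-R libraries, against 1663, 1651 and 1632 CPM in A4573 parental, a ratio of means of 1.78. In TC-71-R it was 1119, 1038 and 1200 CPM, against 502, 496 and 518 CPM in TC-71 parental, a ratio of 2.22. In neither line did a resistant library overlap with a parental one, although the resistant libraries spread more widely than their parents (SD 183 against 16.0 CPM in A4573 and 81.2 against 11.4 CPM in TC-71). TC-71-R, with a mean of 1119 CPM, stayed under the 1649 CPM of A4573 parental. As a part of all reads on named genes, the isotypes made up 0.452% ± 0.0205 in A4573-R and 0.254% ± 0.00518 in A4573 parental, and 0.173% ± 0.0141 in TC-71-R and 0.0819% ± 0.00108 in TC-71 parental (SD, n = 3 each). A sum over bulk RNA cannot tell more cells of a high-tubulin kind from more tubulin mRNA in each cell.

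The alpha and beta members did not rise to the same degree in the 2 lines. The 4 alpha members summed to 2020 ± 142 CPM in A4573-R and 1040 ± 18.8 CPM in A4573 parental, a ratio of 1.94, while the 6 beta members summed to 914 ± 44.9 and 609 ± 2.79 CPM, a ratio of 1.50 (SD, n = 3 each). In TC-71-R the order was the other way, with alpha sums of 625 ± 44.9 CPM in TC-71-R and 307 ± 7.45 CPM in TC-71 parental (ratio 2.04) and beta sums of 494 ± 37.1 and 198 ± 4.74 CPM (ratio 2.49). The alpha sum divided by the beta sum was thus 2.21 ± 0.0817 in A4573-R and 1.71 ± 0.0386 in A4573 parental, but 1.27 ± 0.0258 in TC-71-R and 1.55 ± 0.0274 in TC-71 parental (SD, n = 3 each). Resistant and parental libraries did not overlap in either line. These are ratios of read counts, which longer transcripts raise, so they do not give the ratio of alpha to beta molecules. The beta sums also leave out TUBB, a further beta tubulin gene, at 247 CPM in A4573-R and 232 CPM in A4573 parental on average. TUBB averaged 153 CPM in TC-71-R, with 264 CPM in replicate 2, against 89.3 CPM in TC-71 parental. The ratios thus hold for the listed members only. When TUBB was added to the beta sum of each library, resistant and parental ratios stayed apart in A4573. In TC-71 the resistant and parental ratios then overlapped.

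**Figure D1:**
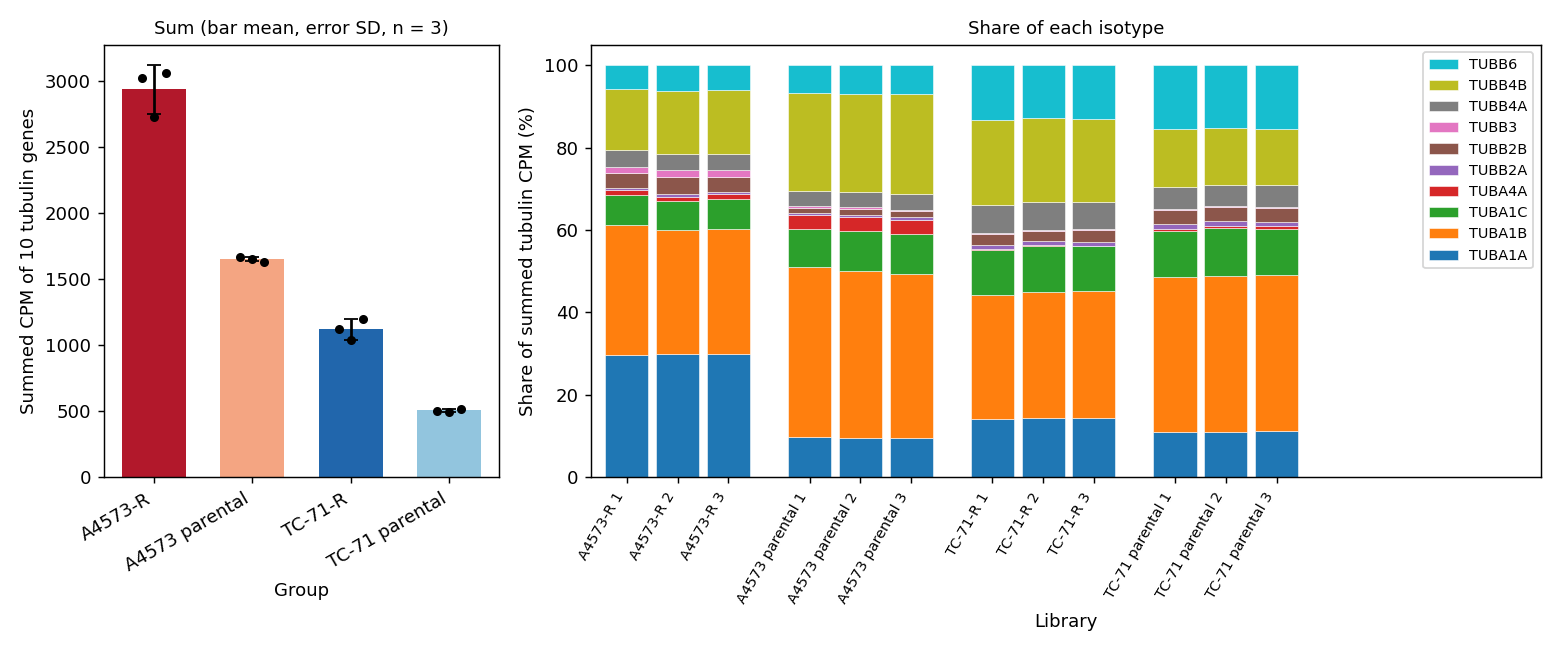
Left, summed CPM of the 10 tubulin genes per group (bar, mean; error bar, SD; points, 3 libraries); right, the share of each isotype in that sum for each of the 12 libraries. The sum was 1.78 times as high in A4573-R and 2.22 times as high in TC-71-R as in the parents, and the TUBA1A share reached 29.8% in A4573-R, against 9.61% in A4573 parental.

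Tested one by one with limma on log2(CPM + 1), 9 of the 10 isotypes rose and TUBA4A fell in A4573-R, and the same 9 rose and TUBA4A fell in TC-71-R. Of all 14335 genes tested, 72.5% passed in A4573-R, with 38.3% higher and 34.1% lower, and 78.5% passed in TC-71-R, with 38.8% higher and 39.6% lower. Genes that rose in both lines were 16.4% of those tested, and genes that fell in both were 14.8%. The median log2 fold change of the isotypes was 0.76 in A4573-R and 0.96 in TC-71-R, beside 0.02 and −0.0033 for all tested genes. For all 10 isotypes and in both lines, the 3 resistant libraries lay wholly above or wholly below the 3 parental ones. Among all tested genes, 39.7% lay wholly above and 35% wholly below in A4573-R, and 40.2% and 40.9% in TC-71-R.

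**Figure D2:**
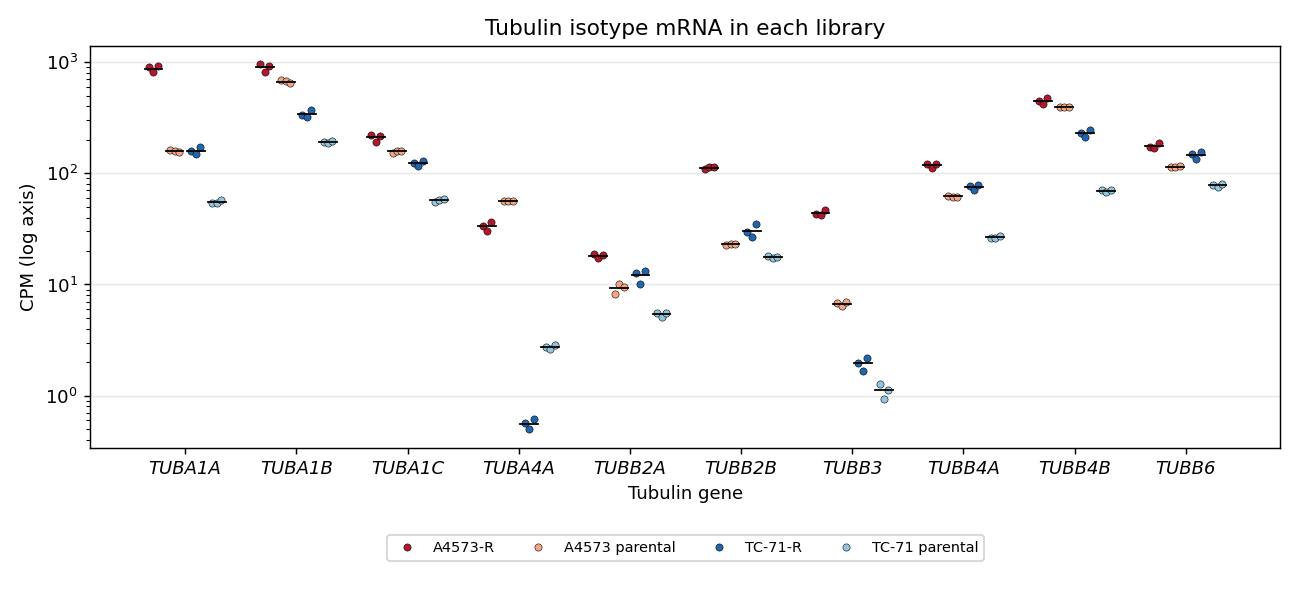
CPM on a log axis of each tubulin gene in each of the 12 libraries, with 4 groups per gene (points, libraries; short lines, group means, n = 3). In both lines the resistant libraries lie above the parental ones for 9 genes and below them for TUBA4A, which averaged 0.560 CPM in TC-71-R and 2.75 CPM in TC-71 parental.

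The isotypes with the largest log2 fold changes, as distinct from the largest gains in CPM, differed between the lines. In A4573-R they were TUBB3, TUBA1A and TUBB2B, isotypes known for high expression in developing and mature neurons. In TC-71-R they were TUBB4B, TUBA1A and TUBB4A, TUBB4B being a widely expressed isotype and TUBB4A one known mainly from brain. The difference between the lines was tested as an interaction, the change in TC-71-R minus the change in A4573-R, and 9 of the 10 isotypes passed, 5 with a higher change in TC-71-R and 4 with a lower one. Of all tested genes, 78.1% passed this test, so that passing it sets no isotype apart from most other genes.

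**Figure D3:**
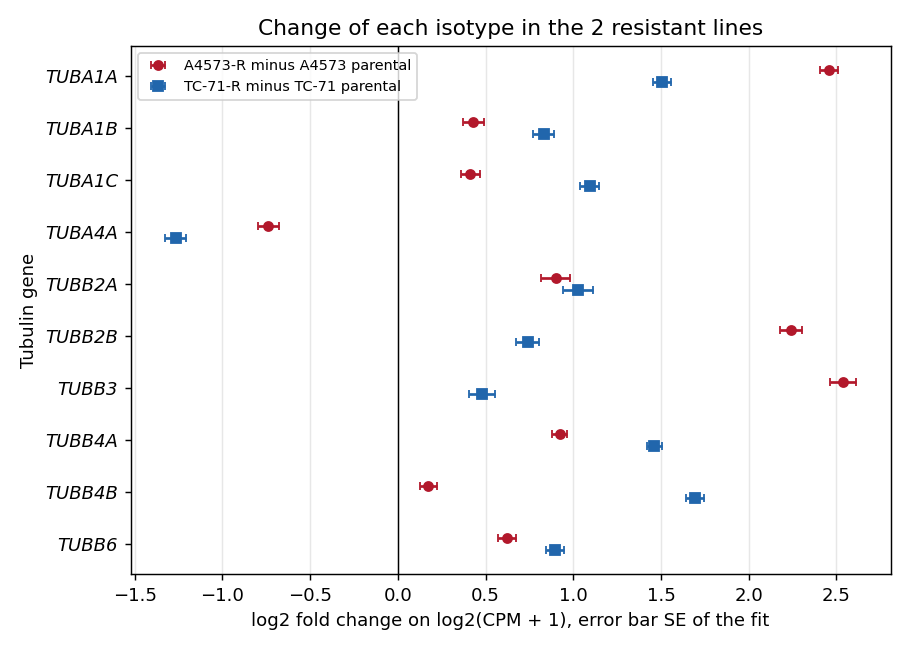
Log2 fold change of each tubulin gene on log2(CPM + 1) in A4573-R against A4573 parental (circles) and in TC-71-R against TC-71 parental (squares), with the SE of the fit. TUBB3 stands at 2.54 and 0.48, TUBB4B at 0.17 and 1.69, and TUBA4A is below 0 in both lines at −0.74 and −1.27.

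The end of the coding sequence, which encodes the tail in which the isotypes differ most, is given for 4 of them. Each line holds the last 60 coding bases, stop codon included, from the GENCODE release 29 transcripts on GRCh38, with in-frame glutamate codons in capitals. Glutamates of the tail are where enzymes of the TTLL family add further glutamates. The 4 are TUBA4A, the isotype that fell, TUBB2B and TUBB3, the beta isotypes that gained most in A4573-R, and TUBB4B, the isotype that gained most in TC-71-R.
TUBA4A: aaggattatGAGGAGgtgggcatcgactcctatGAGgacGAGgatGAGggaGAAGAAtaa
TUBB2B: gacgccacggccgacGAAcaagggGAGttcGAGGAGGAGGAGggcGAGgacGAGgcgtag
TUBB3: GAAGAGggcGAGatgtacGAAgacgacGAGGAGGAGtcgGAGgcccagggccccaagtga
TUBB4B: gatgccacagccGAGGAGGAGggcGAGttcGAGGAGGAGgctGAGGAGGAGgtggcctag
A tyrosine codon stands before the stop in TUBA1C, and TUBA4A ends in a glutamate codon in its place. Removal and re-addition of that last tyrosine is a known cycle of alpha tubulin, which TUBA4A protein enters without it. The 20 tail codons include 10 for glutamate in TUBB4B, 9 in TUBB4A, 8 in TUBB2A, TUBB2B and TUBB3, 7 in TUBA4A and TUBB6, and 6 in TUBA1C.

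Among the alpha genes, TUBA1A (chromosome 12, 49184796 to 49189324 in GRCh38, minus strand) encodes the alpha isotype prominent in neurons of the developing brain. It stood at 895, 815 and 913 CPM in A4573-R, against 161, 159 and 155 CPM in A4573 parental, a log2 fold change of 2.45 (SE 0.05, adjusted p = 7.24e-15). In TC-71-R it stood at 158, 148 and 172 CPM, against 54.4, 54.4 and 57.4 CPM in TC-71 parental, a log2 fold change of 1.51 (SE 0.05, adjusted p = 6.42e-13). The groups do not overlap, and the TC-71-R level lies near that of A4573 parental. By size of change TUBA1A ranked 43 of 14335 genes in A4573-R and 506 in TC-71-R. The change was smaller in TC-71-R by 0.95 on the log2 scale (difference −0.95, SE 0.07, adjusted p = 1.06e-08).

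TUBA1B (chromosome 12, 49127782 to 49131397, minus strand), the most abundant alpha isotype here and one found in nearly all tissues, changed less. It stood at 956, 821 and 930 CPM in A4573-R, against 686, 669 and 649 CPM in A4573 parental (log2 fold change 0.43, SE 0.06, adjusted p = 9.22e-06). Its TC-71-R libraries stood at 336, 318 and 371 CPM, against 189, 188 and 197 CPM in TC-71 parental (log2 fold change 0.83, SE 0.06, adjusted p = 3.54e-09). TUBA1A thus came close to TUBA1B in A4573-R, at 874 and 903 CPM on average, whereas in A4573 parental TUBA1A had 159 CPM and TUBA1B 668 CPM. Per kilobase of the principal transcript, which allows genes to be compared, TUBA1A averaged 457 ± 27.1 and TUBA1B 555 ± 44.0 CPM per kilobase in A4573-R (SD, n = 3). The 2 did not overlap in any group on that scale.

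TUBA1C (chromosome 12, 49188736 to 49274603, plus strand), a further broadly expressed alpha isotype, ranged from 189 to 222 CPM in A4573-R, against 153 to 159 CPM in A4573 parental (log2 fold change 0.41, SE 0.05, adjusted p = 4.24e-06). In TC-71-R it ranged from 117 to 129 CPM, against 55.7 to 58.5 CPM in TC-71 parental (log2 fold change 1.09, SE 0.05, adjusted p = 3.5e-11). Its change was higher in TC-71-R by 0.68 on the log2 scale (SE 0.07, adjusted p = 6.62e-07).

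TUBA4A (chromosome 2, 219249711 to 219278170, minus strand) encodes the alpha isotype without the last tyrosine and is known from platelets and nerve cells. It stood at 33.9, 30.1 and 36.4 CPM in A4573-R, against 56.2, 56.2 and 56.6 CPM in A4573 parental, and fell by 0.74 on the log2 scale (SE 0.06, adjusted p = 2.54e-08). In TC-71-R it stood at 0.563, 0.498 and 0.619 CPM, against 2.73, 2.63 and 2.88 CPM in TC-71 parental. It fell there by 1.27 on the log2 scale (SE 0.06, adjusted p = 2.83e-11), with a ratio of means of 0.204, which log2(CPM + 1) understates at these levels. The TC-71-R values rest on 38 to 60 reads per library and those of TC-71 parental on 218 to 260. TUBA4A was thus the isotype that fell in both lines while the other 9 rose.

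Among the beta genes, TUBB3 (chromosome 16, 89921392 to 89938761, plus strand) encodes the neuronal beta isotype, a marker of neurons that has been linked to resistance to taxanes in tumours. It stood at 42.6, 42.2 and 46.7 CPM in A4573-R, against 6.78, 6.34 and 7.02 CPM in A4573 parental, a ratio of means of 6.53 (log2 fold change 2.54, SE 0.07, adjusted p = 2.06e-13). Its TC-71-R libraries stood at 1.98, 1.68 and 2.20 CPM, against 1.28, 0.942 and 1.13 CPM in TC-71 parental, a ratio of 1.75 (log2 fold change 0.48, SE 0.07, adjusted p = 2.11e-05). TUBB3 ranked 40 of 14335 genes by size of change in A4573-R and 4968 in TC-71-R. It had the widest difference between the lines of the 10 isotypes, −2.06 on the log2 scale (SE 0.10, adjusted p = 7.77e-11). The TC-71 values rest on 128 to 213 reads per library in TC-71-R and 78 to 107 in TC-71 parental.

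Of 8 neuronal markers, 6 were tested. In A4573-R 5 were higher and 1 lower, and their summed level was 145 to 153 CPM, against 70.6 to 73.2 CPM in A4573 parental. In TC-71-R 2 were higher, 3 lower and 1 did not pass, and the sum was 83.6 to 86.0 CPM, against 106 to 110.5 CPM in TC-71 parental. ENO2, the neuronal enolase, averaged 56.4 CPM in A4573-R and 7.85 CPM in A4573 parental, and fell to 57.3 CPM in TC-71-R, against 78.3 CPM in TC-71 parental. None of the 8 was at 0 in all libraries of a group, but STMN2 and RBFOX3 stayed at group means of 0.171 CPM or less. NCAM1 averaged 0.0127 CPM in TC-71-R and 0.0161 CPM in TC-71 parental. The part of this marker list in the tubulin changes was not tested.

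TUBB2B (chromosome 6, 3224261 to 3231730, minus strand), a beta isotype of the developing nervous system, stood at 110.2, 113 and 113 CPM in A4573-R, against 22.5, 23.3 and 23.1 CPM in A4573 parental (log2 fold change 2.24, SE 0.07, adjusted p = 2.34e-13). In TC-71-R it stood at 29.4, 26.6 and 34.8 CPM, against 17.9, 17.2 and 17.7 CPM in TC-71 parental (log2 fold change 0.74, SE 0.07, adjusted p = 4.58e-08). Like TUBB3 it changed less in TC-71-R, by −1.50 on the log2 scale (SE 0.09, adjusted p = 8.15e-10). Its neighbour TUBB2A (chromosome 6, 3153669 to 3157526, minus strand) ranged from 17.2 to 18.7 CPM in A4573-R, against 8.22 to 10.03 CPM in A4573 parental (log2 fold change 0.90, SE 0.08, adjusted p = 1.31e-07). In TC-71-R TUBB2A ranged from 10.2 to 13.3 CPM, against 5.07 to 5.57 CPM in TC-71 parental (log2 fold change 1.03, SE 0.08, adjusted p = 1.92e-08). TUBB2A was the isotype for which a difference between the lines did not pass the test (0.13, SE 0.12, 95% interval −0.13 to 0.38, adjusted p = 0.343). Without TC-71-R replicate 2 it passed (0.24, adjusted p = 0.033).

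TUBB4B (chromosome 9, 137241213 to 137243707, plus strand) had the highest CPM of the 6 beta isotypes in A4573-R, A4573 parental and TC-71-R, whereas in TC-71 parental TUBB6 was higher, at 77.6 CPM beside 69.9 CPM for TUBB4B. TUBB4B stood at 232, 211 and 243 CPM in TC-71-R, against 70.7, 68.1 and 71.0 CPM in TC-71 parental, a ratio of 3.27 (log2 fold change 1.69, SE 0.05, adjusted p = 1.43e-13). In A4573-R it stood at 450.0, 415 and 471 CPM, against 393, 393 and 396 CPM in A4573 parental, a ratio of 1.13 (log2 fold change 0.17, SE 0.05, adjusted p = 0.00573). The change was higher in TC-71-R by 1.52 on the log2 scale (SE 0.07, adjusted p = 3.54e-11), the reverse of the order seen for TUBB3 and TUBB2B.

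TUBB4A (chromosome 19, 6494319 to 6502848, minus strand) stood at 121, 112 and 121 CPM in A4573-R, against 62.9, 61.3 and 61.2 CPM in A4573 parental (log2 fold change 0.92, SE 0.04, adjusted p = 2.77e-11). Its TC-71-R libraries stood at 76.5, 71.1 and 77.9 CPM, against 26.3, 26.3 and 27.4 CPM in TC-71 parental (log2 fold change 1.46, SE 0.04, adjusted p = 8.18e-14). TUBB6 (chromosome 18, 12307669 to 12344320, plus strand), a beta isotype reported to loosen the microtubule network when abundant, ranged from 169 to 187 CPM in A4573-R, against 113 to 115 CPM in A4573 parental (log2 fold change 0.62, SE 0.05, adjusted p = 2.73e-08). In TC-71-R TUBB6 ranged from 133 to 156 CPM, against 75.5 to 79.6 CPM in TC-71 parental (log2 fold change 0.90, SE 0.05, adjusted p = 2.35e-10). Both genes rose more in TC-71-R, by 0.54 and 0.27 on the log2 scale (adjusted p = 5.45e-07 and 0.00278).

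The make-up of the tubulin pool, taken as the share of each isotype in the summed tubulin CPM, moved with these changes. TUBA1A made up 29.8% ± 0.193 of the pool in A4573-R and 9.61% ± 0.0991 in A4573 parental, a gain of 20.2 percentage points. In TC-71-R its share was 14.2% ± 0.113, against 11.0% ± 0.121 in TC-71 parental, a gain of 3.28 points. The share of TUBA1B was lower in both resistant lines, at 30.7% ± 0.780 in A4573-R and 40.5% ± 0.744 in A4573 parental, and 30.5% ± 0.480 in TC-71-R and 37.9% ± 0.0985 in TC-71 parental (SD, n = 3 each). Within the 4 alpha members alone, TUBA1A took 43.3% in A4573-R and 15.2% in A4573 parental, and TUBA1B 44.7% and 64.2%. So a gene whose mRNA rose could still lose share, as TUBA1B did.

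TUBB4B moved in opposite directions. Its share was 15.2% ± 0.278 in A4573-R and 23.9% ± 0.317 in A4573 parental, but 20.4% ± 0.260 in TC-71-R and 13.8% ± 0.217 in TC-71 parental. TUBB2B had 3.83% ± 0.277 in A4573-R and 1.39% ± 0.0359 in A4573 parental, against 2.70% ± 0.178 in TC-71-R and 3.49% ± 0.0741 in TC-71 parental. TUBB3 likewise had 1.49% ± 0.0744 in A4573-R and 0.407% ± 0.0232 in A4573 parental, against 0.174% ± 0.0110 in TC-71-R and 0.221% ± 0.0322 in TC-71 parental (SD, n = 3 each). For these 3 isotypes the libraries do not overlap in either line, and the share went up in one line and down in the other. With all alpha and beta tubulins as the denominator, TUBB3 libraries overlapped in TC-71, at 0.153% in TC-71-R and 0.187% in TC-71 parental.

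Among the remaining isotypes, TUBA4A held 1.14% in A4573-R and 3.42% in A4573 parental, and 0.050% in TC-71-R and 0.544% in TC-71 parental. TUBB6 held 6.02% in A4573-R and 6.93% in A4573 parental, and 13.0% in TC-71-R and 15.4% in TC-71 parental. Within the 6 beta members alone the direction for TUBB6 in A4573 was the opposite, with 19.3% in A4573-R and 18.8% in A4573 parental and no overlap. TUBB4A held 4.03% in A4573-R and 3.75% in A4573 parental, and 6.73% in TC-71-R and 5.27% in TC-71 parental, and so was one of 2 isotypes, with TUBA1A, whose share was higher without overlap in both lines. TUBA1C held 7.14% in A4573-R and 9.52% in A4573 parental, but its libraries overlapped in TC-71, at 11.1% and 11.4%. TUBB2A, at 0.618% in A4573-R and 0.563% in A4573 parental and at 1.08% in TC-71-R and 1.07% in TC-71 parental, overlapped in both lines.

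In all, 4 shares lay wholly above and 5 wholly below the parent in A4573-R, and 3 above and 5 below in TC-71-R. Divided by the same tubulin sum, 6.57% of all tested genes lay wholly above and 83.1% wholly below in A4573-R, and 4.07% and 89.6% in TC-71-R. That sum rose in both lines, so a gene of unchanged CPM falls when divided by it, whereas the isotypes are parts of it. The contrast between these percentages and the counts of isotypes thus follows from the way they were computed. The shares add up to 100%, so they are not independent of each other, and an exact 2-sided permutation test of 3 against 3 libraries cannot give a p below 0.1, which it gave for each share without overlap. Per kilobase of the principal transcript, TUBA1B had the highest level in all 4 groups. TUBB4B was next in TC-71-R and in both parental lines, and TUBA1A was next in A4573-R. At the low end stood TUBB2A in A4573-R (11.4 CPM per kilobase), TUBB3 in A4573 parental (3.80), TUBA4A in TC-71-R (0.259) and TUBB3 in TC-71 parental (0.631). No 2 neighbours in these orders overlapped between libraries.

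The parental lines differed before any resistance. All 10 isotypes were lower in TC-71 parental than in A4573 parental by limma, with a median log2 difference of −1.47, where 89.9% of all tested genes passed, 45.9% higher and 44.1% lower. Their libraries did not overlap, as was so for 45.4% of all tested genes in the same direction. These comparisons use the same parental libraries as those above. The largest gap was that of TUBA4A, which averaged 2.75 CPM in TC-71 parental, against 56.3 CPM in A4573 parental (log2 difference −3.94, SE 0.06, adjusted p = 7.74e-18). The smallest was that of TUBB2B, which averaged 17.6 CPM in TC-71 parental, against 22.9 CPM in A4573 parental (−0.36, SE 0.07, adjusted p = 8.14e-05). By share, TUBB6 held 15.4% in TC-71 parental and 6.93% in A4573 parental, and TUBB4B 13.8% and 23.9%.

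The isotypes are close relatives, so the reads that tell them apart were examined in the annotation. Every 100-base window of each principal transcript was looked up, in the sense of the transcript, in all other GENCODE release 29 transcripts. TUBB4A and TUBB6 shared no window with another gene, and TUBB4B shared 2.86%. TUBB2A shared 56.4% and TUBB2B 46.2%, mostly with each other, as their coding sequences differ at 25 of 1338 bases. TUBA1B shared 37.2%, TUBA1A 18.3% and TUBA1C 11.5% with another gene. TUBB3 shared 89.0% with AC092143.1, a gene annotated at the same position and strand, with 1584 exon bases in common. AC092143.1 was at 0.0171 CPM or less in every group mean. The rule by which reads from shared sequence were assigned is not given. The levels and shares of TUBB3, TUBB2A, TUBB2B, TUBA1A, TUBA1B and TUBA1C relative to other isotypes are therefore uncertain, the comparison of TUBA1A with TUBA1B included. The same counting applies to both groups of a comparison. A rise of an isotype could still add reads to a relative that shares its sequence, as with TUBB2B and TUBB2A, and this was not tested.

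**Figure D4:**
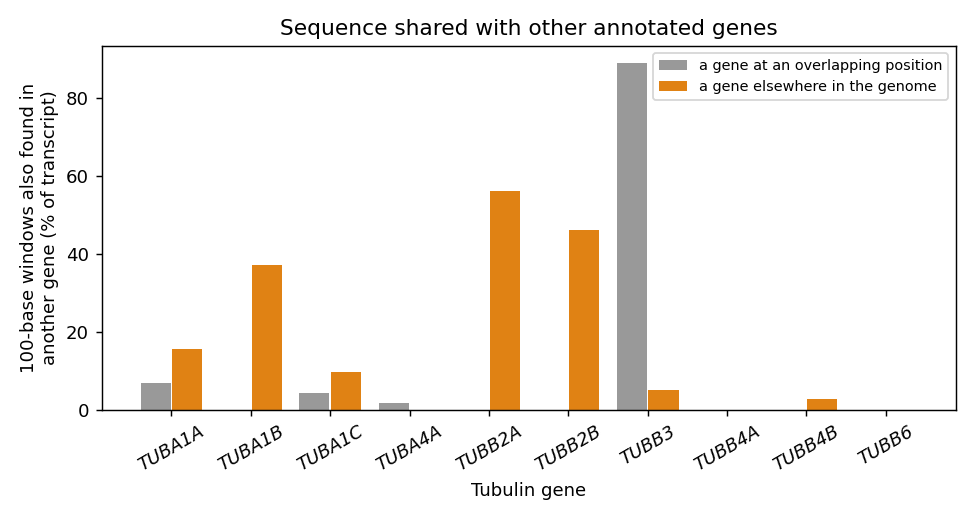
Percent of the 100-base windows of each principal tubulin transcript that also occur, in the same sense, in a transcript of another annotated gene. Grey marks genes whose position overlaps that of the isotype, and orange marks genes elsewhere. Overlaps of exons on opposite strands are not counted. TUBB3 shared 89.0% with a gene at its own position, TUBB2A 56.4% with genes elsewhere, and TUBB4A and TUBB6 none.

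Some isotypes overlap an expressed gene on the opposite strand, and whether the counting used strand is not given in the labels. TUBA1A and TUBA1C share 490 exon bases on opposite strands, TUBA4A shares 627 with STK16, TUBB6 shares 837 with AFG3L2, and TUBB2B shares 174 with PSMG4. STK16 averaged 15.5 CPM in A4573-R and 15.4 CPM in A4573 parental, and 26.0 CPM in TC-71-R and 22.4 CPM in TC-71 parental. AFG3L2 averaged 54.2 CPM in A4573-R and 54.4 CPM in A4573 parental, and 79.1 CPM in TC-71-R and 79.7 CPM in TC-71 parental. The 39 tubulin pseudogene entries summed to at most 8.27 CPM in a library, 0.493% or less of the summed isotypes.

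Other genes of the tubulin pathway moved in both directions. Of 13 genes for gamma, delta and epsilon tubulin and the gamma-tubulin ring, which starts microtubules, 6 rose and 3 fell in A4573-R (median log2 fold change −0.03), and 6 rose and 6 fell in TC-71-R (median 0.01). TUBG1, the main gamma tubulin, averaged 100.5 CPM in A4573-R and 80.8 CPM in A4573 parental (log2 fold change 0.31, adjusted p = 1.48e-05), and 47.1 CPM in TC-71-R and 24.7 CPM in TC-71 parental (0.90, adjusted p = 4.5e-11). TUBE1, the epsilon tubulin of centrioles, went in opposite directions, with log2 fold changes of 0.77 in A4573-R (adjusted p = 8.37e-05) and −1.17 in TC-71-R (adjusted p = 8.47e-07).

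Of 22 genes for tubulin folding and autoregulation, 13 rose and 3 fell in A4573-R (median log2 fold change 0.15), and 12 rose and 7 fell in TC-71-R (median 0.12). TBCB, a chaperone of alpha tubulin, averaged 53.4 CPM in A4573-R and 36.0 CPM in A4573 parental (log2 fold change 0.55, adjusted p = 4.3e-09), but 15.1 CPM in TC-71-R and 38.5 CPM in TC-71 parental (−1.30, adjusted p = 1.43e-13). CCT4, a subunit of the chaperonin that folds tubulin, averaged 482 CPM in A4573-R and 353 CPM in A4573 parental (log2 fold change 0.45, adjusted p = 1.26e-08). In TC-71-R CCT4 averaged 301 CPM, against 226 CPM in TC-71 parental (0.41, adjusted p = 2.18e-08). The subunits did not all move alike. CCT6A was lower without overlap in both lines, at 420 CPM in A4573-R and 475 CPM in A4573 parental, and 248 CPM in TC-71-R and 289 CPM in TC-71 parental. Libraries of CCT2 and CCT3 overlapped in A4573. TTC5, which recognises new tubulin chains in autoregulation and is named here for that role after its values were seen, averaged 14.2 CPM in A4573-R and 11.4 CPM in A4573 parental (log2 fold change 0.30, adjusted p = 7.93e-06). It averaged 23.8 CPM in TC-71-R and 25.6 CPM in TC-71 parental (−0.10, adjusted p = 0.0438).

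Of 24 listed tubulin-modifying enzymes 18 were tested, of which 8 rose and 3 fell in A4573-R (median log2 fold change 0.11) and 14 rose and 2 fell in TC-71-R (median 0.24). TTLL6 and TTLL1, which add glutamate chains to tubulin tails, rose in A4573-R. Their log2 fold changes there were 1.09 and 0.69 (adjusted p = 4.77e-10 and 4.97e-07). The TTLL family did not rise as a whole in that line. TTLL4 averaged 44.3 CPM in A4573-R and 54.1 CPM in A4573 parental, TTLL12 122 and 150 CPM, and TTLL3 2.73 and 4.45 CPM. The libraries of these genes did not overlap, whereas those of TTLL7 did, at 16.3 CPM in both groups. HDAC6, a tubulin deacetylase, averaged 68.4 CPM in A4573-R and 46.0 CPM in A4573 parental (log2 fold change 0.56, adjusted p = 3.43e-08). In TC-71-R, TTLL6 and TTLL1 had log2 fold changes of 0.30 each (adjusted p = 0.000449 and 0.00161), and HDAC6 one of 0.16 (adjusted p = 0.0051). TTL, which puts back the last tyrosine of alpha tubulin, averaged 242 CPM in TC-71-R and 167 CPM in TC-71 parental (log2 fold change 0.53, adjusted p = 1.63e-08). It did not pass in A4573-R, where it averaged 139 CPM, against 141 CPM in A4573 parental (−0.03, adjusted p = 0.572).

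The genes whose 4 group means lay nearest to those of 2 isotypes on centred log2(CPM + 1) were looked up among 11304 genes. Nearest to TUBB3 were CPT1C, CACNG4 and SCGB3A2, at root mean square distances of 0.27, 0.31 and 0.32 over the 4 groups. CPT1C averaged 17.3 CPM in A4573-R, 3.39 CPM in A4573 parental, 0.0342 CPM in TC-71-R and 0.0662 CPM in TC-71 parental. For TUBA1A an entry the files list as HGNC:18790 was nearest (0.21), at 29.8 CPM in A4573-R, 4.28 CPM in A4573 parental, 5.64 CPM in TC-71-R and 0.545 CPM in TC-71 parental. CD24 and TMEM151B came next, both at 0.39. None of these 6 genes is a tubulin by name, and likeness over 4 means is only a description.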

How the data were processed

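RNA-seq of 12 libraries was used. The tools named in the submitters' processing notes are edgeR, HTSeq, STAR 2.4 and Trimmomatic, and the build is GRCh38. What the authors deposited for each library is a normalized signal per gene, CPM on scaled library sizes. In each library all values were whole multiples of a step within 0.001, and the multiples were taken as reads. Entries with no gene name (5 of 58293) held 30.6% to 42.0% of reads and were left out, though the deposited scaling counts them. Repeated symbols were summed; no isotype was repeated.

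Genes that reached 1 CPM in 3 or more libraries were fitted with limma 3.58.1 (R 4.3.3), with a mean per group and a variance trend, on log2(CPM + 1), a scale that understates the changes of low genes. The shares are each isotype's CPM over the summed CPM of all 10. Benjamini-Hochberg adjusted p-values cover all 14335 genes, with a threshold of 0.05. The fit was tested on simulated counts. At 43983425 to 62129570 reads on named genes per library, counting error is small except for TUBA4A and TUBB3 in TC-71. Positions, lengths and sequences come from GENCODE release 29. The coding ends of TUBA1A and TUBA1B are not reported here. The principal transcript is the annotated principal isoform with the longest coding sequence. The alternatives were edgeR 4.0.16 and DESeq2 1.42.0 on the recovered reads, other pseudocounts, filters, scalings and share denominators, a replicate block, and each library left out.

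The isotypes and gene lists were chosen with earlier results of these data known. Besides the 10 isotypes, the rule for named genes took up to 3 genes per list and line with the largest change past the threshold and at least 5 CPM in the higher group, of which the text gives some.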

Additional observations from a re-analysis of the deposited data

Results flagged for a closer look

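The change in TC-71-R minus the change in A4573-R passed the interaction test of limma (adjusted p under 0.05) for 9 isotypes, each with 3 libraries in each of 4 groups. On the log2 scale it was −2.06 for TUBB3, −1.50 for TUBB2B, −0.95 for TUBA1A and −0.53 for TUBA4A. It was 1.52 for TUBB4B, 0.68 for TUBA1C, 0.54 for TUBB4A, 0.40 for TUBA1B and 0.27 for TUBB6. For TUBA4A both changes were falls. The same test was passed by 78.1% of all genes tested. Groups of 3 libraries are too small for a test of single outlying libraries.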

How the results depend on the processing

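Other pseudocounts, filters and scalings, edgeR, DESeq2, smaller fits and each library left out were tried. The number of isotypes whose change differed between the lines was 9, or 10 without TC-71-R replicate 2, and in the other 3 comparisons 10 isotypes were called under each alternative run. Of 870 single tests, 869 kept their direction and their side of the threshold. The exception was the difference between lines of TUBB2A, which passed without TC-71-R replicate 2 (0.24, adjusted p = 0.033, range over alternatives 0.033 to 0.661). The difference of TUBA4A ranged from −1.50 to −0.42. The summed ratio was 1.69 to 1.84 in A4573-R and 2.11 to 2.30 in TC-71-R. Shares without overlap numbered 9 to 10 and 7 to 9. With the replicate number as a block (replicate block), 10 isotypes were called in A4573-R and 10 in TC-71-R, as without it. Same-numbered libraries correlated at −0.10 to 0.17, over 0.1 in 2 of 18 pairs, and 4 of 18 correlated best with their own number. Under other denominators of the share (per kilobase of exon, per kilobase of the principal transcript, which was chosen after seeing the data, or with all alpha and beta tubulins), 23 of 60 differences stayed within 1 SD and none of those without overlap changed direction. Among the beta members alone, TUBB6 in A4573-R went the other way (0.56 points, against −0.90). TUBB2A, which overlapped in the share of all 10, did not overlap among the beta members (0.46 points in A4573-R, −0.28 in TC-71-R). Among the alpha members alone, TUBA1C in TC-71-R was higher without overlap (1.10 points, against −0.30 with overlap). Depth limits TUBA4A in TC-71-R, at 38 to 60 reads per library.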

Other observations

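TUBB, the beta tubulin gene that most dividing cells use and that is not one of the 10 isotypes, varied within groups. It stood at 288, 214 and 239 CPM in A4573-R and at 307, 195 and 196 CPM in A4573 parental, where replicate 1 is high. In TC-71-R it stood at 92.8, 264 and 103 CPM, with replicate 2 high, against 90.4, 89.7 and 87.8 CPM in TC-71 parental. It did not pass in A4573-R (log2 fold change 0.11, SE 0.28, adjusted p = 0.74) or TC-71-R (0.60, SE 0.28, adjusted p = 0.0622). The summed isotypes in these libraries were 1038 CPM in TC-71-R replicate 2, the lowest of its group, and 1663 CPM in A4573 parental replicate 1, beside 1651 and 1632 CPM. TUBB8, a beta tubulin known from oocytes, averaged 6.08 CPM in TC-71-R and 2.79 CPM in TC-71 parental (log2 fold change 0.90, adjusted p = 2.19e-09), and 0.593 CPM in A4573-R and 0.143 CPM in A4573 parental (0.48, adjusted p = 4.56e-06). The other 7 listed alpha and beta tubulin genes were below the filter.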
